A study of Mus musculus with 24 samples.

Results

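Mouse CD4 T cells lacking the transcription factors BATF and BATF3 were compared before culture and after 4 days of strong stimulation. The comparison used 6 of the 24 arrays in the series, chosen by sample title: 3 arrays of double knockout (DKO, genotype label Batf1/3DKO) cells at day 4 with anti-CD3e at 10 ng/ml, and 3 arrays of unstimulated DKO naive CD4 T cells at day 0. The day 4 cells had been cultured in TH2 conditions with anti-CD3e in solution plus anti-CD28, cross-linked through anti-hamster IgG on the plate. All samples carry the strain label 129SvEv. Further groups served for reference: wild-type (WT) cells at day 0 and at day 4 with 10 ng/ml, DKO cells at day 4 with 2.2 ng/ml, and DKO cells at day 2 in TH2 conditions, for which the labels give no concentration. Each of these groups also had 3 arrays. Age, sex, the number of mice and the way the alleles were deleted are not given in the labels, nor whether the arrays of a group came from separate animals. The p-values therefore reflect only how much the arrays within a group varied, which may be technical. That spread was estimated from all 24 arrays, which also include WT cells at day 2 and at day 4 with 2.2 ng/ml. Receptor stimulation, costimulation, TH2 conditions and time in culture changed together between day 0 and day 4 and cannot be told apart.

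BATF and BATF3 are small basic leucine zipper proteins that have no activation domain of their own and bind DNA as partners of JUN proteins. In lymphocytes the BATF-JUN pair binds together with the interferon regulatory factors IRF4 or IRF8 at composite elements that join an AP-1 site to an IRF site. IRF4 is induced in proportion to the strength of T cell receptor signalling, and BATF is known to be needed for the differentiation of TH2, TH17 and T follicular helper cells. TH2 cells are the helper T cells that make IL-4, IL-5 and IL-13 under the control of GATA3. By its title, the series asks how graded receptor signals are read through elements that respond to BATF and IRF4, and the comparison asks what strong stimulation changed in cells lacking BATF and BATF3.

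Expression was measured on arrays, in intensity units after robust multi-array averaging (RMA), and levels are given as linear intensity, mean ± SD over 3 arrays. Over all arrays the median intensity of an array lay between 26.4 and 31.6, and values near or below this level carry little signal. Correlations between arrays of a group were 0.991 to 0.992 for DKO at 10 ng/ml and 0.987 to 0.989 for DKO at day 0, and no array held the same values as another. Along the leading principal component (52.5% of the variance) the DKO day 0 arrays lay between 65.7 and 70.8 and the DKO 10 ng/ml arrays between -33.5 and -27.4. The defining genes of CD4 T cells were present in both states: Cd4, the coreceptor, read 943 ± 106 at day 0 and 734 ± 46.1 at 10 ng/ml, and Cd3d, a chain of the CD3 complex, read 936 ± 145 and 1136 ± 74.7. A fold change here is the ratio of geometric means between groups.

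The knocked-out genes were examined first. Batf, which encodes BATF, read 30.9, 28.2 and 34.5 on the 3 DKO day 0 arrays and 43.02, 44.4 and 52.1 on the 3 DKO arrays at 10 ng/ml. In WT cells it read 114, 156 and 134 at day 0 and 1696, 1496 and 1593 at 10 ng/ml. Every DKO array was below every WT array. The DKO values lay near the array median, and the small rise within DKO, 0.58 ± 0.16 on the log2 scale (± SE), passed the test (adjusted p = 0.0053), whereas WT Batf rose 11.9-fold (95% interval 9.53 to 14.9). The response in DKO was smaller than in WT by 7.98-fold (95% interval 5.83 to 10.9) (adjusted p = 1.0e-09). Whether the probes of Batf lie within the deleted part was not tested.

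Batf3 read 27.2, 29.3 and 20.7 in DKO at day 0 and 33.3, 24.7 and 31.5 at 10 ng/ml, with overlapping groups and no call (0.22 ± 0.19 log2, adjusted p = 0.44). In WT cells it went from 30.4 ± 2.75 to 146 ± 32.8, and the DKO response was smaller by 4.08-fold (95% interval 2.78 to 5.98) (adjusted p = 1.2e-05). Irf4, the partner factor, was induced without either protein. It read 32.2, 26.4 and 37.1 at day 0 and 878, 971 and 838 at 10 ng/ml in DKO, a rise of 28.3-fold (95% interval 20.8 to 38.5) (adjusted p = 5.7e-15). In WT it went from 32.8 ± 7.89 to 1304 ± 101; the difference between the responses was -0.52 ± 0.30 log2 and was not called (adjusted p = 0.42).

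**Figure D1:**
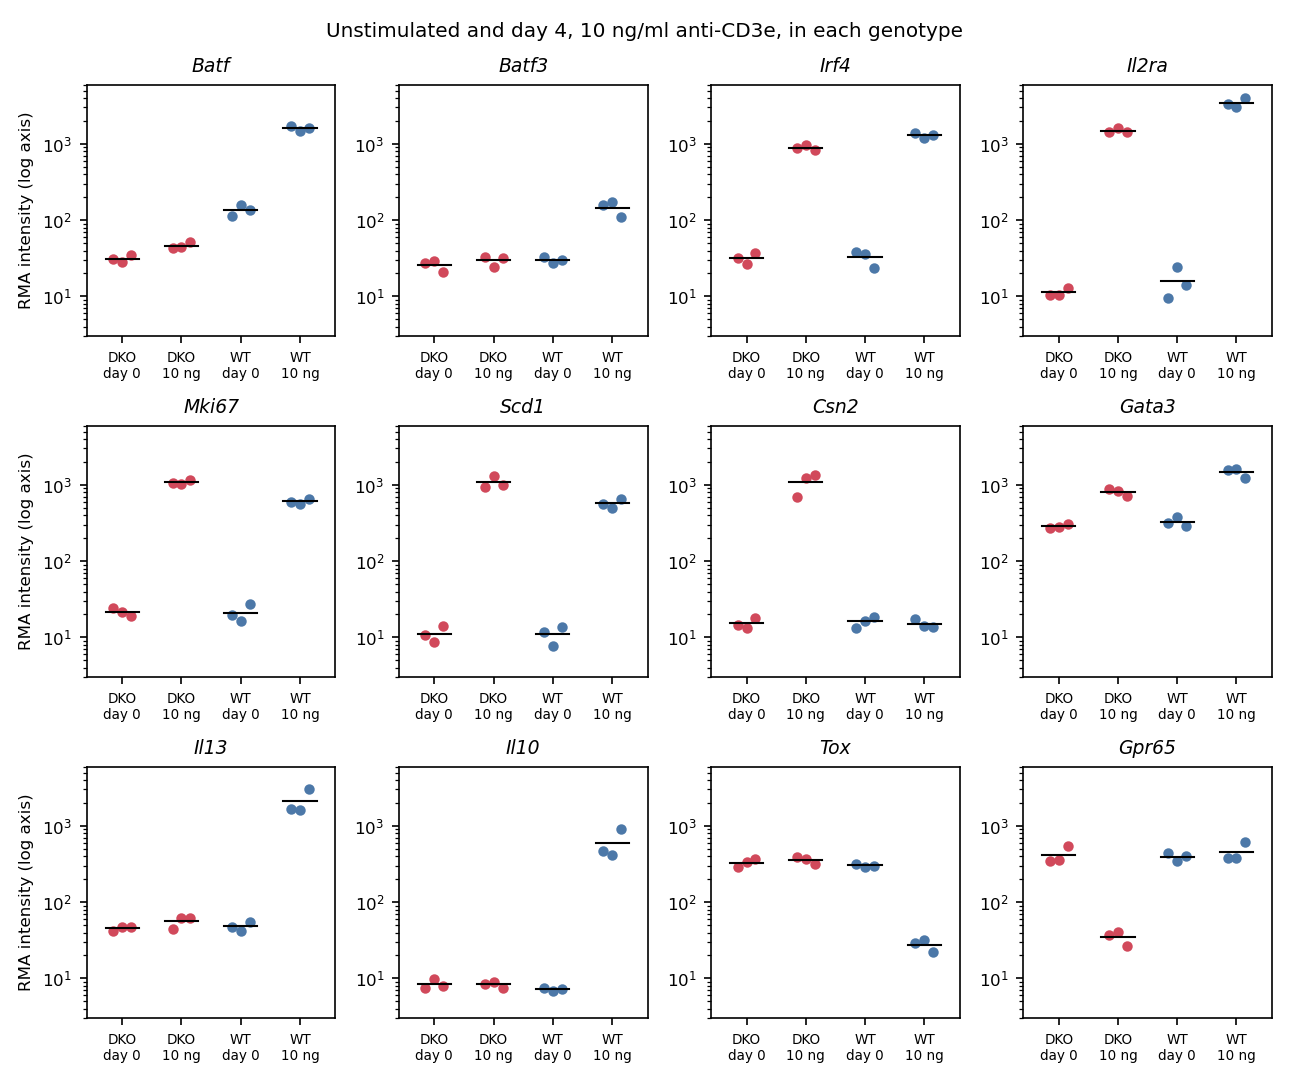
Intensity (RMA, linear units on a log axis) of 12 genes on each array of 4 groups, DKO and WT at day 0 and at day 4 with 10 ng/ml anti-CD3e; points are arrays (n = 3 a group) and bars are arithmetic means. Irf4, Il2ra, Mki67 and Scd1 rose in both genotypes, Csn2 rose in DKO alone of the 2 genotypes plotted, and Il13 and Il10 stayed near their day 0 level in DKO.

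In all, 3277 genes were higher and 2842 were lower at 10 ng/ml than at day 0 in DKO cells at an adjusted p under 0.05 (limma, Benjamini-Hochberg over 19938 genes), so 30.7% of the genes tested were called, 16.4% higher and 14.3% lower. Of these, 1483 were at least 2-fold higher and 755 at least 2-fold lower, and 164 rose and 27 fell at least 8-fold. Over all genes tested, the median log2 change was -0.05.

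Genes were ranked by fold change among those called without overlap between the groups. Predicted gene models, small RNA genes, pseudogenes, antigen receptor segments and Y-linked genes were left out. In this ranking the largest rise was that of Il2ra, the alpha chain that gives the IL-2 receptor its high affinity. It read 10.4, 10.5 and 13.02 at day 0 and 1429, 1614 and 1427 at 10 ng/ml, a rise of 132-fold (95% interval 98.03 to 178) (adjusted p = 2.8e-18). Lack of overlap between the groups was a condition of entry to the ranking and is no result. The day 0 values of Il2ra, like those of some other genes that rose most, lay below the array medians. The size and the order of such rises therefore rest on background values. Scd1, a stearoyl-CoA desaturase that makes monounsaturated fatty acids, followed, from 10.9, 8.58 and 13.9 to 936, 1306 and 989, or 97.6-fold (95% interval 53.7 to 178). Nrn1, the membrane-anchored protein neuritin, went from 11.1, 11.1 and 19.1 to 1079, 1096 and 1036, or 80.3-fold (95% interval 49.1 to 131). Csn2, which encodes beta-casein, a milk protein of the mammary gland, went from 14.7, 13.3 and 17.95 to 685, 1235 and 1356, or 68.9-fold (95% interval 44.4 to 107) (adjusted p = 6.7e-14). The first array at 10 ng/ml had a lower Csn2 intensity than the other two and still lay far above day 0.

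The other 11 of the 15 largest rises spanned from 55.3-fold for Bub1, a kinase of the mitotic checkpoint, to 38.4-fold for Stc2, a secreted glycoprotein. Among them, Mki67 (Ki-67, a marker of cycling cells), Kif11 and Hmmr (spindle proteins), Birc5 (survivin, a chromosomal passenger) and the histone genes H2ac4 and H1f5 belong to cell division. Mki67 went from 21.6 ± 2.65 to 1079 ± 61.2, or 50.2-fold (95% interval 40.8 to 61.7). Nfil3, a basic leucine zipper repressor induced by cytokines, went from 20.04 ± 8.24 to 839 ± 60.7, or 44.01-fold (95% interval 33.4 to 58.1). Marcks, a substrate of protein kinase C at the membrane, rose 48.1-fold (95% interval 32.4 to 71.5). Prr11, a protein of cycling cells, rose 41.95-fold.

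In the same ranking the largest fall was that of Samd9l, an interferon-inducible growth suppressor, from 466, 571 and 452 at day 0 to 9.78, 9.33 and 9.16 at 10 ng/ml. It fell 52.4-fold (95% interval 38.9 to 70.6) (adjusted p = 1.2e-16) and ended below the array median, so the size of the fall is limited by the background. Il18r1, a receptor chain for IL-18, went from 455, 404 and 399 to 14.04, 15.99 and 10.8, a fall of 31.1-fold (95% interval 23.6 to 41.1). S1pr1, the receptor that lets T cells leave lymph nodes, went from 2482, 2275 and 2187 to 160.1, 70.3 and 113, a fall of 21.3-fold (95% interval 14.5 to 31.4). Ms4a4b, a membrane protein of T cells, went from 658, 753 and 740.0 to 53.7, 26.5 and 37.8, a fall of 18.97-fold (95% interval 12.2 to 29.4). For these genes too, lack of overlap between the 3 arrays of each group was a condition of entry.

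The remaining 11 of the 15 largest falls included the interferon-inducible genes Rtp4 (256 ± 12.7 to 9.83 ± 1.22), Ifi208, Ifi214 and Slfn5. Rasgrp2, a guanine nucleotide exchange factor for Rap1, fell 12.9-fold (95% interval 9.12 to 18.4). Actn1, an actin crosslinker, fell 12.3-fold (95% interval 10.02 to 15.2). Gpr65, a proton-sensing receptor, went from 348, 354 and 542 to 37.3, 40.9 and 26.6, a fall of 11.8-fold (95% interval 7.95 to 17.5) (adjusted p = 2.1e-10). Igfbp4, Hsd11b1, Mctp2 and Cd55 made up the rest, with falls between 11.6-fold for Cd55 and 15.4-fold for Hsd11b1.

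Genes of cell division rose as a group. All 19 measured genes of the mitosis list were called higher, against 16.4% of all genes, with a median log2 change of 4.60 beside -0.05 for all genes. Kif11, the kinesin that separates spindle poles, went from 14.3, 12.1 and 11.7 to 581, 604 and 593. Cenpf and Cenpe, kinetochore proteins, rose 22.5-fold and 26.1-fold. Ccnb2, a B-type cyclin, went from 26.3, 39.2 and 25.8 to 928, 933 and 951, or 31.4-fold (95% interval 25.9 to 38.04), and Cdk1, the kinase it activates, from 29.3, 20.3 and 24.4 to 532, 565 and 459, or 21.2-fold (95% interval 16.7 to 26.7). Top2a, a DNA topoisomerase, rose 37.2-fold by the probe set used and 5.13-fold by a dimmer one, so its size is uncertain.

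All 20 measured genes of DNA replication were also higher, with a median of 2.10. Rrm2, the small subunit of ribonucleotide reductase, went from 27.6 ± 3.65 to 532 ± 46.2. Tyms, which makes thymidylate, rose 11.6-fold (95% interval 8.95 to 14.95), and the helicase subunit Mcm6 rose 6.95-fold (95% interval 5.65 to 8.56). Of 17 genes for G1 cyclins and their inhibitors, 9 rose and 2 fell (1 in 6 of the other settings), beside 16.4% and 14.3% of all genes. The falls are near the latter share. Cdk6, a G1 kinase, rose 4.60-fold (95% interval 3.71 to 5.70), as did its inhibitor Cdkn2c (7.29-fold (95% interval 5.26 to 10.1)). Rbl2, the p130 protein that holds resting cells out of the cycle, went from 248 ± 6.77 to 118 ± 20.2, a fall of 2.13-fold (95% interval 1.64 to 2.76).

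The promoters of the mitosis genes carry short elements known from cell cycle genes, and those of Ccnb2 and Cdk1 are shown because both genes were among those that rose. They are RefSeq sequences of GRCm38.p6, 5′ to 3′ on the gene's strand, from 250 bases before to 50 after the first listed start, with capitals marking CCAAT (bound by NF-Y) and TTTGAA (the cell cycle genes homology region) on either strand, where the reverse strand reads ATTGG or TTCAAA. Ccnb2 lies at chr9:70421505-70421804 and Cdk1 at chr10:69352863-69353162, both on the minus strand.
Ccnb2: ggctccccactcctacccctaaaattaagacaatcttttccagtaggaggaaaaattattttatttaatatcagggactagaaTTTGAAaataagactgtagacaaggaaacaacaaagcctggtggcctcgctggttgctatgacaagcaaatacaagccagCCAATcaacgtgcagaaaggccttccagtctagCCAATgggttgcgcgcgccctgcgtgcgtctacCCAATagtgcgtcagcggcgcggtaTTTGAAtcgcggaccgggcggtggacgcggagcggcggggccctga
Cdk1: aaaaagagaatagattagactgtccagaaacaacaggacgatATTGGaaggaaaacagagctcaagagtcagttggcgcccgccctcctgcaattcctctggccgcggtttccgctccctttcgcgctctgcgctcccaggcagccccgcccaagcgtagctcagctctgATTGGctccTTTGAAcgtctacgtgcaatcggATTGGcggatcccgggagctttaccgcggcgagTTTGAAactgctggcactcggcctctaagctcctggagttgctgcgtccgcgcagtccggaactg
Each held 5 matches, 3 of CCAAT and 2 of TTTGAA. Of 15 mitosis genes with a listed promoter, 13 (86.7%) held CCAAT, beside 37.9% of 27025 promoters of the same length, and 11 (73.3%) held TTTGAA, beside 18.1%. Among 17 DNA replication genes the shares were 64.7% and 17.6%. These matches describe letters in a window and were not tested.

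Genes of sugar and lipid metabolism rose together with cell division. All 13 measured glycolysis genes were higher, beside 16.4% of all genes, with a median of 2.49. Tpi1, triose phosphate isomerase, went from 95.7, 76.6 and 58.5 to 1702, 1790.3 and 1672, or 22.8-fold (95% interval 17.4 to 29.9). Pgk1, phosphoglycerate kinase, went from 455 ± 13.96 to 3606 ± 403, and Slc2a3, a glucose transporter, from 70.7 ± 15.4 to 539 ± 134. Of 14 targets of hypoxia-inducible factor, 10 rose and none fell, beside 16.4% and 14.3% of all genes. Bnip3, a mitophagy receptor, went from 30.8, 40.5 and 29.7 to 936, 1033 and 1116, or 30.8-fold (95% interval 21.1 to 44.9), while its other probe set gave 12.1-fold. Egln3, a prolyl hydroxylase that senses oxygen, rose 14.3-fold (95% interval 10.4 to 19.6).

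Sterol and fatty acid synthesis also rose. All 15 measured cholesterol synthesis genes were higher, beside 16.4% of all genes, with a median of 2.34. Idi1, an isomerase of the isoprenoid pathway, went from 48.05, 69.9 and 69.1 to 550.1, 556 and 515, or 8.79-fold (95% interval 6.41 to 12.05). Hmgcs1, which starts the pathway, went from 102 ± 13.6 to 647 ± 36.6. Of 11 fatty acid synthesis genes 10 rose, led by Scd1, by Scd2 (69.1 ± 24.9 to 1916 ± 184), its related desaturase, and by Fads2 (18.4 ± 2.30 to 514 ± 11.8), a desaturase of polyunsaturated fatty acids.

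Amino acid, nucleotide and mitochondrial genes had lower medians. Of 17 amino acid and one-carbon genes, 16 rose, beside 16.4% of all genes, with a median of 1.07. Asns, asparagine synthetase, went from 65.3 ± 13.6 to 505 ± 87.3, and Slc7a5, a carrier of large neutral amino acids, from 155 ± 34.6 to 791 ± 179. Of 14 nucleotide synthesis genes 10 rose, and of 15 respiratory chain genes 13 rose, with medians of 0.73 and 1.07. Cycs, cytochrome c, rose 3.82-fold (95% interval 2.85 to 5.11) by the probe set used and 3.53-fold by another and was not called by the dimmest (-0.35 log2), and Paics, an enzyme of purine synthesis, rose 2.29-fold (95% interval 1.93 to 2.72). Of 15 chaperones 10 rose, led by Sdf2l1 of the endoplasmic reticulum (3.75-fold), and 1 fell (2 or 3 under some other settings): Dnajb9, a cochaperone of BiP, went from 618 ± 43.7 to 104 ± 16.8. Of all genes 14.3% were called lower, and the 1 fall is below that share.

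Genes of the ribosome were called less uniformly. Of 15 ribosome biogenesis genes 5 rose (3 after quantile normalization) and none fell, beside 16.4% and 14.3% of all genes. The most significant rise was that of Nop58, a protein of small nucleolar ribonucleoproteins (1.81-fold (95% interval 1.46 to 2.25)). Of 12 ribosomal protein genes 3 were called higher and after quantile normalization or cyclic loess none was called higher, while 2 (quantile) and 4 (loess) were called lower, so no direction is given for them.

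Naive and quiescence genes fell. Of 17 measured, 16 were lower, against 14.3% of all genes, with a median of -1.25 beside -0.05. Il6ra, a receptor chain for IL-6, went from 561, 625 and 550.0 to 72.9, 74.99 and 75.8, a fall of 7.75-fold (95% interval 6.01 to 9.997). Btg2, an antiproliferative protein, fell 4.18-fold (95% interval 3.28 to 5.32), and Foxp1, a factor that maintains quiescence, fell 2.18-fold (95% interval 1.79 to 2.67). The exception was Dapl1, a death-associated protein of naive T cells, at 434, 579 and 434 on the day 0 arrays and 659, 314 and 408 at 10 ng/ml; these groups overlapped (-0.12 ± 0.36 log2, adjusted p = 0.85).

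Interferon-stimulated genes also fell, 13 of 17 beside 14.3% of all genes, with none higher and a median of -1.32. Besides Samd9l and Rtp4, Ddx58, the RNA sensor RIG-I, went from 481 ± 34.4 to 53.9 ± 13.3, and Zbp1, a nucleic acid sensor, from 549 ± 25.2 to 105 ± 21.6. With dim genes left out of the test, 7 of the list were called lower. Of 16 T cell receptor signalling genes, 10 fell and none rose. Prkcq, protein kinase C theta, went from 1616 ± 122 to 553 ± 67.9, a fall of 2.93-fold (95% interval 2.36 to 3.64), and Cd5, an inhibitory receptor, fell 2.67-fold (95% interval 2.18 to 3.26).

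**Figure D2:**
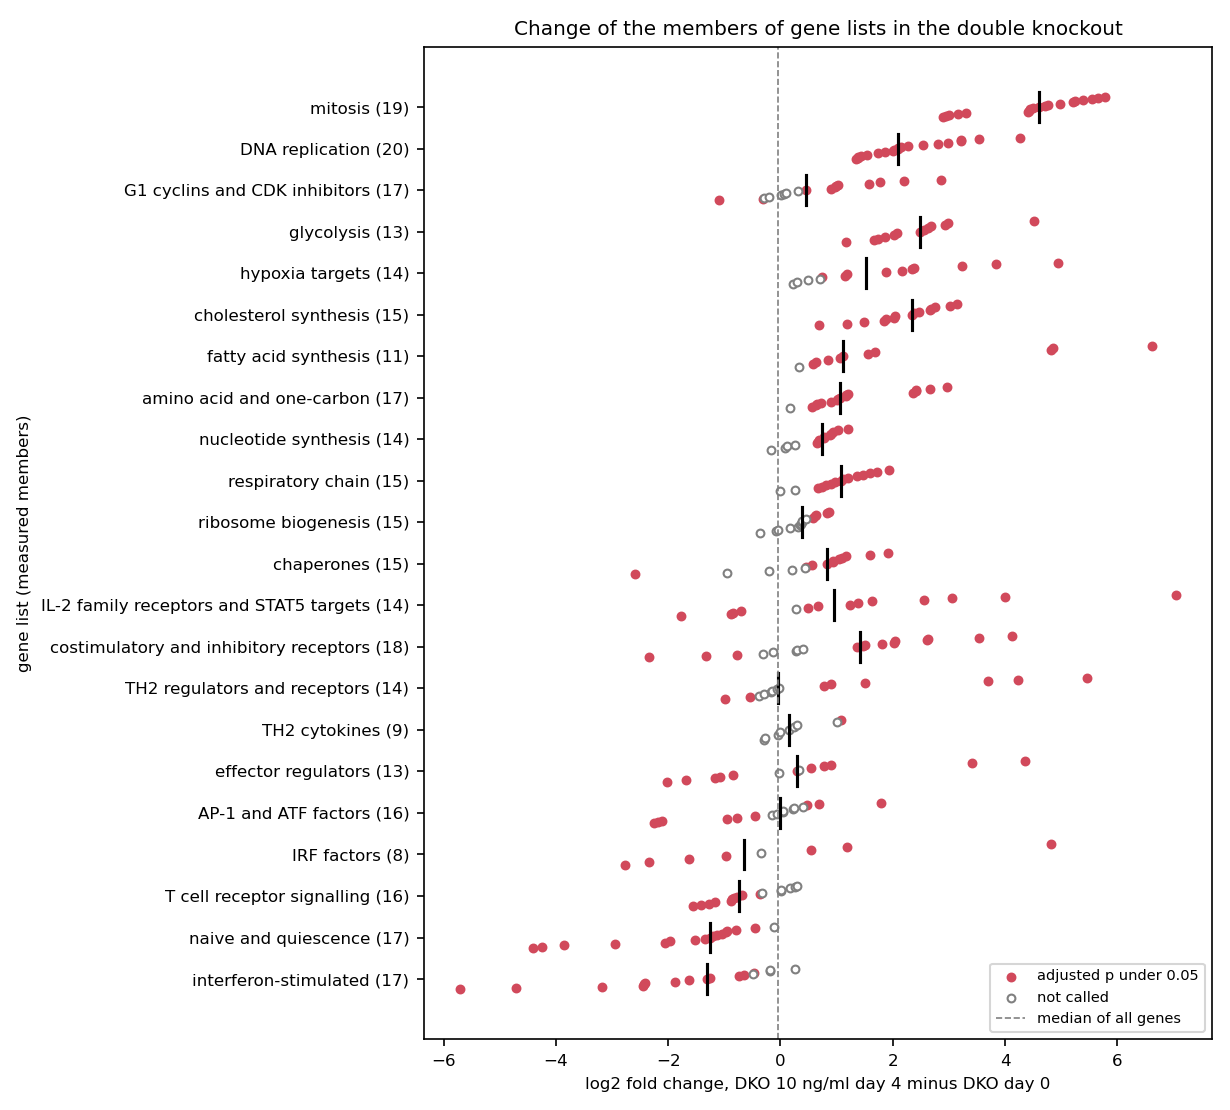
Log2 fold change (DKO 10 ng/ml day 4 minus DKO day 0) of each measured member of 22 gene lists, with the number of members in brackets; filled points had an adjusted p under 0.05, the black bar is the list's median and the dashed line is the median of all genes (-0.05). All mitosis, DNA replication, glycolysis and cholesterol synthesis members were called higher, and 8 of the 9 TH2 cytokine genes were not called.

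Of 14 genes in the list of IL-2 family receptors and STAT5 targets, 9 rose and 4 fell, beside 16.4% and 14.3% of all genes. Il2rb, the shared beta chain, went from 72.8, 79.6 and 107 to 1398, 1408 and 1274, or 15.9-fold (95% interval 12.99 to 19.5). Cish and Socs2, feedback inhibitors induced through STAT5, rose 5.88-fold (95% interval 4.75 to 7.27) and 8.29-fold (95% interval 5.90 to 11.6), the other probe set of Socs2 giving 3.49-fold. Socs3, the feedback inhibitor of IL-6 signalling, went the other way, from 211, 245 and 203 to 53.98, 74.03 and 65.00, a fall of 3.43-fold (95% interval 2.73 to 4.30) (2.20-fold by its other probe set), with Stat3 (402 ± 13.7 to 223 ± 11.1) and Il21r, the IL-21 receptor (436 ± 29.99 to 236 ± 26.9).

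Of 18 costimulatory and inhibitory receptors, 10 rose and 3 fell, beside 16.4% and 14.3% of all genes, so the falls are near the latter share. Tnfrsf4, which encodes OX40, went from 83.03, 80.4 and 61.7 to 1158, 1416 and 1321, or 17.4-fold (95% interval 13.5 to 22.3). Lag3, an inhibitory receptor for MHC class II, went from 27.04 ± 7.02 to 305 ± 14.4, and Tnfrsf18, which encodes GITR, from 121 ± 18.9 to 729 ± 45.1. Cd27, a costimulatory receptor of naive cells, fell 5.06-fold (95% interval 3.94 to 6.49). Ctla4, the inhibitory receptor that competes with CD28, rose from 42.7, 77.8 and 78.9 to 228, 206 and 236, or 3.49-fold (95% interval 2.39 to 5.08).

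Of 14 TH2 regulators and receptors, 6 rose and 2 fell (1 with dim genes left out), beside 16.4% and 14.3% of all genes. The falls are near the latter share, and the median was -0.04. Gata3, the TH2 master regulator, went from 275, 279 and 303 to 881, 832 and 718, a rise of 2.83-fold (95% interval 2.36 to 3.40) (adjusted p = 1.1e-09), with no overlap. The TH2-associated chemokine receptors Ccr4 and Ccr8 went from 19.9 ± 3.60 to 255 ± 14.6 and from 9.68 ± 0.91 to 183 ± 23.1. Of 9 TH2 cytokine genes only Csf2, GM-CSF, was called, at 11.8, 11.96 and 11.6 on the day 0 arrays and 20.3, 24.9 and 30.9 at 10 ng/ml, still near the array median; with the compared groups fitted alone, 2 of the list were called higher.

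Il4 read 17.7, 20.2 and 16.4 at day 0 and 18.8, 23.6 and 21.6 at 10 ng/ml in DKO (0.24 ± 0.35 log2, adjusted p = 0.68), and Il13 read 41.3, 47.7 and 47.2 and 44.6, 61.7 and 62.9 (0.30 ± 0.34 log2, adjusted p = 0.58). Their groups overlapped. Il5 read 10.5 ± 1.92 and 8.61 ± 0.86, Il10 8.46 ± 1.16 and 8.33 ± 0.80, and Il24 13.5 ± 1.14 and 13.1 ± 1.60, none of which passed the test. Except for Il13, their values at 10 ng/ml lay below the array medians.

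Of 18 other cytokine genes, 7 rose and 2 fell, beside 16.4% and 14.3% of all genes, so the falls are near the latter share. Ebi3, a subunit of IL-27 and IL-35, went from 30.1, 23.5 and 24.9 to 394, 472 and 369, or 15.7-fold (95% interval 11.5 to 21.5). Lif, leukemia inhibitory factor, went from 18.4 ± 0.97 to 284 ± 87.8, and Tnfsf11, which encodes RANKL, from 74.2 ± 8.90 to 361 ± 44.1. Il21 and Inhba, the latter encoding an activin subunit, read 6.45 ± 1.25 and 23.7 ± 3.06 at 10 ng/ml and were not called. Of 10 chemokines 4 rose (2 with dim genes left out), beside 16.4% of all genes. The rises were led by Ccl5 (34.2 ± 4.16 to 232 ± 25.7) and Ccl22 (20.8 ± 4.17 to 67.7 ± 21.98).

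Of 16 AP-1 and ATF factors 3 were higher, a share near the 16.4% of all genes, and 6 were lower, beside 14.3% of all genes. Jun, which encodes a member of the JUN family that pairs with BATF, went from 698, 486 and 758 to 121, 144 and 156, a fall of 4.56-fold (95% interval 3.42 to 6.07), and Fos and Fosb fell 4.76-fold and 4.30-fold. Atf3, a stress-induced member, rose 3.47-fold (95% interval 2.39 to 5.06). Of 8 IRF genes 3 rose and 4 fell. Irf1, an activator of interferon responses, went from 509 ± 135 to 73.6 ± 8.86, whereas Irf8, the other known partner of BATF, rose from 52.9 ± 5.64 to 119.6 ± 12.8, or 2.26-fold (95% interval 1.71 to 2.99).

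Among effector regulators 6 of 13 rose and 5 fell, beside 16.4% and 14.3% of all genes. Bhlhe40, a repressor that supports cytokine production, went from 18.6 ± 2.81 to 379.6 ± 45.4, and Vdr, the vitamin D receptor, from 20.05 ± 2.07 to 213 ± 19.3. Klf6, a zinc finger factor, fell 4.08-fold (95% interval 3.36 to 4.95). Prdm1, which encodes BLIMP-1, was not called (0.34 ± 0.19 log2, adjusted p = 0.2), and neither was Ahr of the TH17 list, the aryl hydrocarbon receptor (-0.16 ± 0.17 log2, adjusted p = 0.52). Hif1a, the oxygen-regulated factor, was called at 0.30 ± 0.11 log2, but not after cyclic loess (0.12 log2, adjusted p = 0.43), after quantile normalization (adjusted p = 0.10), with the replicate block (adjusted p = 0.056), with the compared groups alone (adjusted p = 0.097) or without any of 4 single arrays.

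Of 13 NFAT, NR4A and EGR genes 4 rose and 1 fell, beside 16.4% and 14.3% of all genes. The rises were led by Nr4a3, an orphan nuclear receptor induced by receptor signalling (58.8 ± 7.43 to 261 ± 65.2). Of 12 NF-kB genes 3 rose and 3 fell, beside 16.4% and 14.3% of all genes. Rel, the c-Rel subunit, went from 372 ± 27.5 to 702 ± 22.8, while Bcl3, an atypical IkB protein, went from 263 ± 48.2 to 182 ± 19.4, a fall of 1.43-fold (95% interval 1.18 to 1.75). With dim genes left out, 5 NF-kB genes were lower.

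The remaining lists are given by their counts, several of which lie near the shares of all genes called (16.4% higher and 14.3% lower). Of 18 TH1 and cytotoxic genes 4 rose and 4 fell; Prf1, perforin, fell 2.37-fold (95% interval 1.92 to 2.94). None of the 5 TH17 genes was called. Of 9 regulatory T cell genes 3 rose and 2 fell: Lrrc32, which encodes GARP, rose 6.88-fold and Foxp3 fell 1.68-fold (95% interval 1.39 to 2.05), from 83.3 ± 5.53 to 49.4 ± 2.20. Of 9 T follicular helper genes 2 rose and 3 fell, with Slamf6, a SLAM family receptor, falling 6.03-fold (95% interval 4.40 to 8.27). Of 18 adhesion and chemokine receptor genes 2 rose and 7 fell: Cd44, the hyaluronan receptor of antigen-experienced cells, went from 24.6 ± 3.51 to 341 ± 29.5, a rise of 13.9-fold (95% interval 11.3 to 17.2), and Itga4, the integrin alpha 4 chain, fell 5.24-fold (95% interval 4.22 to 6.51). Of 13 BCL2 family and death receptor genes 5 rose, led by Bcl2l1, which encodes BCL-XL (5.91-fold (95% interval 4.70 to 7.45)), and 2 fell, among them Mcl1 (1.94-fold (95% interval 1.63 to 2.31)). Of 8 metallothionein and zinc carrier genes 4 rose and 1 fell.

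Markers of other cell types were mostly near background. The summed intensity of 15 myeloid and dendritic markers was 770.3 to 791 on the DKO day 0 arrays and 425 to 478 at 10 ng/ml, with 6 lower and 1 higher (2 lower with dim genes left out). Of all genes 14.3% were called lower and 16.4% higher, so the 1 rise is below the latter share. Ctss, cathepsin S, which T cells also express, went from 487 ± 24.7 to 241 ± 29.1, and S100a8, a neutrophil protein, read 10.4, 41.3 and 36.3 at day 0, so that 2 of the 3 day 0 arrays were high. Lyz2 was at 10.2 ± 3.19 and Csf1r at 17.5 ± 0.77 at day 0. Bulk arrays cannot tell fewer cells of a type from less RNA per cell, and the part of such cells in the falls was not tested.

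The 6 B cell markers summed to 79.7 to 86.1 at day 0 and to 127 to 169 at 10 ng/ml, which came from Cd79b, a chain of the B cell receptor, at 24.4, 28.3 and 30.1 and then 74.5, 121 and 71.05. Cd79a read 11.4 ± 0.97, Ms4a1 6.17 ± 0.61 and Pax5 17.3 ± 1.94 at 10 ng/ml, at or below background. The 6 MHC class II genes summed to 222 to 261 at day 0 and to 892.5 to 1045 at 10 ng/ml. Of these, 3 rose, beside 16.4% of all genes: H2-Ab1, a class II beta chain (23.5, 32.6 and 35.4 to 203, 264 and 213), Cd74, the invariant chain (37.7, 34.9 and 27.5 to 190.3, 188 and 175), and H2-DMa (109.9 ± 21.04 to 511 ± 61.8). H2-Aa, the alpha chain that pairs with H2-Ab1, read 17.5 ± 0.50 and the class II transactivator Ciita 14.9 ± 2.88. The CD8 and NK markers summed to 104 to 126 at day 0 and to 95.03 to 135 at 10 ng/ml with 1 of 6 lower, the mast cell and basophil markers to 99.4 to 101 and 93.7 to 97.5 with 1 of 7 lower, and none of the 5 erythroid and platelet markers was called. Both single falls are near the 14.3% of all genes called lower.

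The response of DKO cells was then tested against that of WT cells between the same states, as the difference of the 2 log2 fold changes. No array is shared by the 2 responses. In WT cells 7262 genes were called, 36.4% of those tested. Of the DKO calls 72.1% were called in WT in the same direction, 4409 genes, which made up 60.7% of the WT calls; 82 genes were called in opposite directions. The difference of response itself was called for 1299 genes, 6.52% of those tested: for 526 (2.64%) DKO minus WT was above 0 and for 773 (3.88%) it was below.

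**Figure D3:**
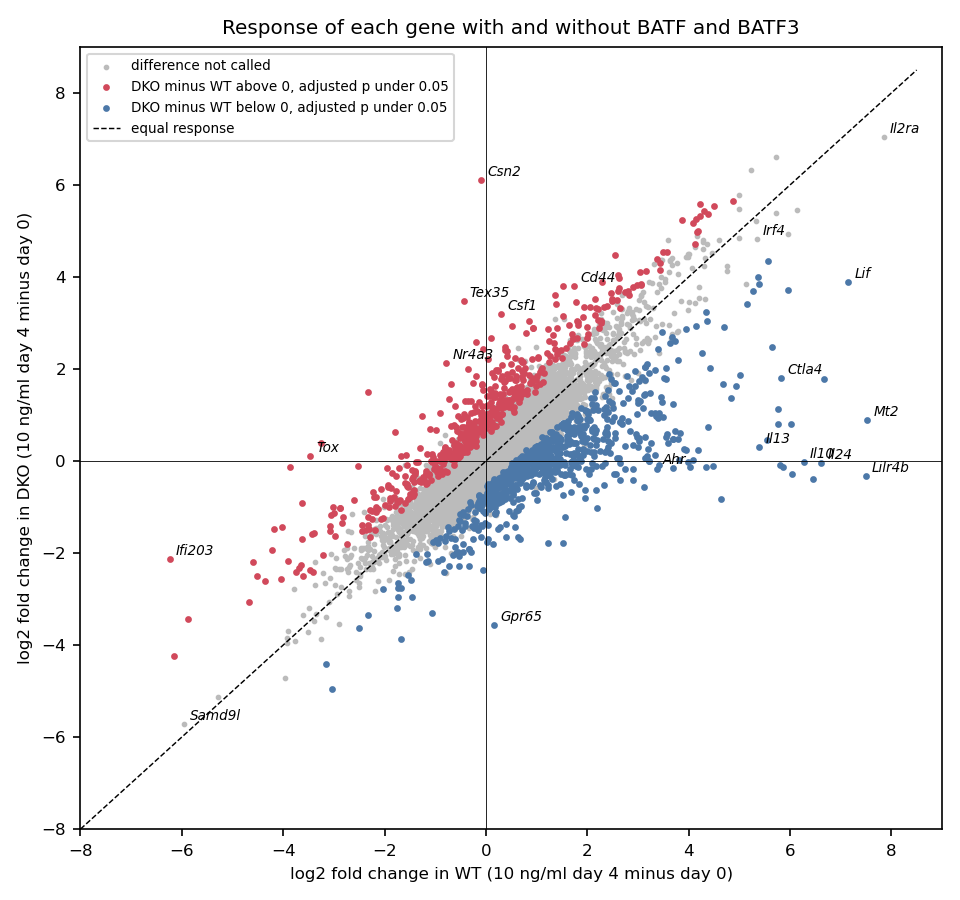
Log2 fold change from day 0 to day 4 at 10 ng/ml in DKO (y axis) against WT (x axis) for 19938 genes; colours mark the 526 genes with DKO minus WT above 0 and the 773 below 0 at an adjusted p under 0.05, and the dashed line marks equal responses. Samd9l lies near that line, as do Il2ra and Irf4 on the side of a smaller DKO response, with differences that were not called. Lilr4b, Il10, Il24 and Il13 lie far right of the line near a DKO change of 0, and Csn2 lies far above it.

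With the same gene types left out, the 10 greatest shortfalls were in genes that rose in WT. In DKO none of them but Mt2 was called. Lilr4b and Lilrb4a encode inhibitory immunoglobulin-like receptors of the LILRB4 type. Lilr4b read 7.94, 9.14 and 11.5 on the DKO arrays at 10 ng/ml and 1839.6, 1646 and 2459.8 on the WT arrays, from 11.9 ± 1.09 and 10.9 ± 1.40 at day 0. The response was smaller in DKO by 227-fold (95% interval 136 to 378) (adjusted p = 3.4e-13), and for Lilrb4a by 116-fold. For Lilr4b and other genes whose DKO and day 0 values lay below the array medians, the size and the order of these differences rest on background values. Il24, an IL-10 family cytokine, read 12.5, 11.95 and 14.9 in DKO and 1020.5, 1188 and 1538 in WT at 10 ng/ml, a response smaller by 102-fold (95% interval 49.5 to 208).

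Il10, an anti-inflammatory cytokine, read 8.57, 8.99 and 7.44 in DKO and 462, 410.5 and 897 in WT at 10 ng/ml, a response smaller by 77.95-fold (95% interval 46.1 to 132). Il21, a cytokine of helper T cells, and Inhba had responses smaller by 62.9-fold and 59.3-fold. Ctla2a, a cysteine protease inhibitor, read 7.72, 6.53 and 6.21 and 687, 490.2 and 608, a response smaller by 79.8-fold (95% interval 48.7 to 131). Ifitm3, an antiviral membrane protein, followed at 43.8-fold. In all of these genes the 3 DKO arrays at 10 ng/ml lay below the 3 WT arrays. The genes were chosen for the size of this difference, so the separation is no further result.

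Mt2, a metallothionein that binds zinc, read 12.3, 18.1 and 51.5 in DKO and 1889, 1944 and 2532 in WT at 10 ng/ml. In DKO 1 of the 3 arrays was high, and the rise of Mt2 from day 0 was called (0.89 ± 0.30 log2, adjusted p = 0.023). Without the highest of them the rise was 0.29 log2 and not called (adjusted p = 0.29), nor was Mt2 called with the compared groups fitted alone (adjusted p = 0.11). Its response was smaller than in WT by 99.8-fold (95% interval 54.8 to 182). Mt1 went from 27.2 ± 2.18 to 93.5 ± 6.03 in DKO and to 2298 ± 484 in WT, a response smaller by 29.8-fold (95% interval 14.6 to 60.9). Spef2, a sperm flagellar protein, completed the 10 greatest shortfalls at 36.8-fold by 1 of its 22 probe sets. That probe set was chosen for its highest mean over all arrays, WT included. In DKO another was brighter, at 64.3 against 28.9 at day 0 and 59.2 against 49.0 at 10 ng/ml. The other 21 were not compared with WT here.

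In the TH2 cytokine list 5 of 9 genes had a smaller response in DKO, against 3.88% of all genes, and 1 a greater one. Il13 reached 2108 ± 817 in WT, and its response was smaller in DKO by 34.2-fold (95% interval 17.1 to 68.6) (adjusted p = 8.7e-08). Il4 reached 330.4 ± 61.7 in WT, smaller in DKO by 13.2-fold (95% interval 6.44 to 26.9), and Il5 44.9 ± 26.6, smaller by 4.95-fold (95% interval 3.05 to 8.01). Gata3 rose in both genotypes and reached 1479.8 ± 215 in WT, a difference of -0.66 ± 0.18 log2 (adjusted p = 0.026) that was not called after quantile normalization (-0.56 log2, adjusted p = 0.063) or with the compared groups fitted alone (adjusted p = 0.080). Ccr4 rose less in DKO (-1.57 ± 0.19 log2), whereas the difference for Ccr8 was not called (adjusted p = 0.35). Il4ra, the IL-4 receptor chain, read 604 ± 71.3 and 578 ± 62.01 in DKO and rose from 516 ± 43.5 to 1396 ± 167 in WT; the response differed by -1.49 ± 0.21 log2. Maf, a factor that drives Il4 and Il10, differed by -1.69 ± 0.32 log2.

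Among effector regulators DKO minus WT was below 0 for 5 of 13 and above 0 for none, beside 3.88% and 2.64% of all genes. For Klf6 the difference below 0 was a greater fall in DKO. Hif1a reached 339 ± 22.4 in DKO and 1785 ± 22.4 in WT, smaller by 6.45-fold (95% interval 5.13 to 8.11). Prdm1 reached 25.02 ± 3.46 and 131 ± 10.8, and Ahr 26.7 ± 7.25 and 269.9 ± 52.2, smaller by 11.6-fold (95% interval 8.22 to 16.3). Fosl2, a FOS-related AP-1 factor, read 61.7 ± 10.7 in DKO and 539 ± 36.6 in WT, smaller by 7.23-fold (95% interval 5.16 to 10.1). Of the 14 hypoxia targets 6 had a smaller response and 1 a greater one, beside 3.88% and 2.64% of all genes, with Egln3 at -1.56 ± 0.31 and Ndrg1, a stress-induced protein, at -1.92 ± 0.26 log2.

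Of 18 costimulatory and inhibitory receptors DKO minus WT was below 0 for 3, above 0 for 1 and not called for 14. Of all genes 3.88% were called below 0 and 2.64% above. The median of the list was 0.02. Ctla4 reached 2895 ± 569 in WT and its response was smaller in DKO by 16.3-fold (95% interval 9.56 to 27.8) (adjusted p = 5.4e-08). Tigit, another inhibitory receptor, was smaller by 5.31-fold (95% interval 3.19 to 8.85). Il12rb2, a chain of the IL-12 receptor, reached 25.6 ± 6.76 in DKO and 308 ± 76.5 in WT. Lif rose in both and was smaller in DKO by 9.49-fold (95% interval 5.71 to 15.8). For Il2ra, Tnfrsf4 and Lag3 the difference was not called, at -0.81 ± 0.30, -0.64 ± 0.25 and -0.80 ± 0.25 log2. At 10 ng/ml Il2ra read 3367, 3077 and 3954 in WT, above 1429, 1614 and 1427 in DKO. Its WT day 0 values (9.6, 24.2 and 14.3) lay below the array medians. Without WT day 0 array 2 its difference was -1.15 log2 and was called (adjusted p = 0.0024).

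Some genes were called in opposite directions in the 2 genotypes. Bcl3 fell in DKO and rose in WT from 152 ± 17.7 to 763 ± 39.7, a difference of -2.85 ± 0.19 log2. Socs3 fell in DKO and rose from 134 ± 12.3 to 382 ± 31.8 in WT (-3.29 ± 0.22 log2). Stat3, Il21r and Rbl2 showed the same arrangement, with differences of -1.86 ± 0.18, -1.43 ± 0.19 and -1.69 ± 0.26. Rel rose in DKO and fell in WT from 316 ± 34.2 to 224 ± 7.08 (1.41 ± 0.16 log2), and Nr4a3 rose in DKO and fell from 62.01 ± 9.29 to 36.1 ± 7.15 in WT (2.91 ± 0.34 log2, adjusted p = 1.8e-06).

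On the other side stood Csn2. WT cells read 13.5, 16.6 and 18.6 at day 0 and 17.2, 14.3 and 13.8 at 10 ng/ml, with no call (adjusted p = 0.82), while each DKO array at 10 ng/ml lay far above these, a response greater in DKO by 73.9-fold (95% interval 39.7 to 138) (adjusted p = 4.1e-10). Tex35, a testis-expressed gene, read 311, 288 and 197 in DKO and 13.5, 19.6 and 16.9 in WT at 10 ng/ml, a response greater by 15.1-fold (95% interval 9.24 to 24.8). Csf1, the macrophage growth factor, read 376, 261 and 242 and 34.98, 34.5 and 32.1, greater by 7.42-fold (95% interval 4.85 to 11.3). Ostn, the secreted peptide osteocrin, went from 7.19 ± 0.49 to 44.3 ± 11.3 in DKO and read 6.69 ± 0.42 in WT, greater by 6.88-fold (95% interval 5.02 to 9.42).

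The next genes fell in WT. Tox, a factor of the HMG box family, read 290.1, 334 and 366 at day 0 and 393, 363 and 315 at 10 ng/ml in DKO, with no call, and fell from 318, 288 and 302 to 29.3, 31.7 and 22.03 in WT, a difference of 3.58 ± 0.21 log2 (adjusted p = 2.1e-11). Trat1, a T cell receptor-associated adaptor, and Dapl1 were also called lower in WT and not called in DKO, with differences of 3.64 ± 0.37 and 3.75 ± 0.51. Dapl1 does not stand for its list. Of the 17 naive and quiescence genes, DKO minus WT was above 0 for 4 and below 0 for 5. Of all genes 2.64% were called above 0 and 3.88% below, and the median of the list was 0.08. Ifi203, an interferon-inducible nuclear protein, fell in both, to 279.6 ± 29.9 in DKO and 14.1 ± 2.24 in WT (4.11 ± 0.39 log2). Qser1, a regulator of DNA methylation, rose in DKO from 70.1 ± 31.5 to 187 ± 26.2 and fell in WT from 56.4 ± 22.9 to 10.7 ± 1.73 (3.83 ± 0.61 log2).

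Some cell division genes rose further in DKO. In the mitosis list 7 of 19 had a greater response in DKO, against 2.64% of all genes, and none a smaller one, with a median difference of 0.61 beside 0.04 for all genes. Kif11 reached 593 ± 11.5 in DKO and 275 ± 16.7 in WT (1.05 ± 0.16 log2), and Bub1b, a spindle checkpoint kinase, 422 ± 67.98 and 228 ± 1.19 (1.39 ± 0.21 log2). In WT, Kif11 was higher at day 2 (533, 563 and 583) and at 2.2 ng/ml (544, 569 and 572) than at 10 ng/ml. Its difference thus goes with a low WT level at 10 ng/ml. The rest of the list was not compared in this way here. Of 20 DNA replication genes 3 had a greater response in DKO and 1 a smaller one, the latter near the 3.88% of all genes called below 0. Of 17 G1 genes none had a greater and 2 a smaller one. In the cholesterol list 4 of 15 had a greater response and none a smaller one, with Hmgcs1 at 0.88 ± 0.19 log2. Cd44 reached 341 ± 29.5 in DKO and 93.99 ± 2.47 in WT, greater by 4.19-fold (95% interval 3.10 to 5.67). Nrp1, neuropilin 1, read 94.4 ± 14.3 in DKO and 15.6 ± 2.20 in WT (2.49 ± 0.27 log2). Bcl2l1 was greater by 1.22 ± 0.23 log2. Glycolysis differed in 1 of 13 genes, Slc2a3 (-1.21 ± 0.34 log2), near the 6.52% of all genes whose response differed. Interferon-stimulated genes differed in 5 of 17. Of these, Ddx58 fell more in DKO, Zbp1 and Ifit2 fell less, Oas1a fell in DKO and was not called in WT, and Stat2 fell in DKO and rose in WT.

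Gpr65, which fell in DKO, read 443, 343 and 399.9 in WT at day 0 and 376, 376 and 610.3 at 10 ng/ml, against 37.3, 40.9 and 26.6 in DKO at 10 ng/ml, a difference of -3.73 ± 0.39 log2 (adjusted p = 4.0e-07). Its WT change was not called (adjusted p = 0.67).

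Of the genes with the greatest difference in each direction, the promoters of Csn2 and Ctla2a are shown, Csn2 for the STAT-type motif TTCNNNGAA known from casein promoters and Ctla2a for the AP-1 motif TGANTCA that BATF-JUN pairs bind; capitals mark the matches of both motifs in each. Csn2 lies at chr5:87699376-87699675 and Ctla2a at chr13:60936576-60936875, both on the minus strand, with the same source, build and window as above.
Csn2: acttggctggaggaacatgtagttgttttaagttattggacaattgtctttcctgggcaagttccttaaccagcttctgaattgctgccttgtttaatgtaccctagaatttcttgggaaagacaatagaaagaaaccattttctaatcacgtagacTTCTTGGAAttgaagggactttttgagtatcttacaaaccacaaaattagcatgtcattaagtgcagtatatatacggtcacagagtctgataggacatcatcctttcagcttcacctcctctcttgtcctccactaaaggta
Ctla2a: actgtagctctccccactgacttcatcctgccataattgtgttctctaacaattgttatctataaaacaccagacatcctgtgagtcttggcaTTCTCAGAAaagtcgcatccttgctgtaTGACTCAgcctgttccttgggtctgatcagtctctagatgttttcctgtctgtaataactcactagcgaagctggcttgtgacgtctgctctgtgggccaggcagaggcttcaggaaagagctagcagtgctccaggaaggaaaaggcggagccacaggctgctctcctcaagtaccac
Csn2 held 1 match, of TTCNNNGAA, and Ctla2a 2, 1 of each motif. TGANTCA was in 3 of 7 listed promoters among the 10 greatest shortfalls (Ctla2a, Mt2 and Ifitm3) and in 1 of 8 among the 10 greatest excesses (Ifi203), beside 7.93% of all promoters. It was in 1 of 12 promoters of the 15 largest rises and in 1 of 13 of the 15 largest falls from day 0. TTCNNNGAA, searched after the values of Csn2 were seen, was in 1 of the 8 promoters of the greatest excesses (Csn2), in 3 of the 7 of the greatest shortfalls (Ctla2a, Ifitm3 and Lilr4b) and in 8.47% of all promoters. Both motifs were searched on both strands with no test; TTCNNNGAA can contain TTTGAA and, through its open letters, overlap TGANTCA.

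The state at 10 ng/ml was set against DKO cells at day 4 with 2.2 ng/ml. In this comparison 891 genes were higher and 734 lower at 10 ng/ml, 8.15% of those tested (4.47% higher and 3.68% lower). Without the first 2.2 ng/ml array the counts were 577 and 481. Lists of metabolism led: 15 of 15 cholesterol genes, 12 of 13 glycolysis genes, 12 of 17 amino acid genes and 11 of 14 hypoxia targets were higher at 10 ng/ml, and none was lower. Scd1 read 10.3, 9.08 and 9.04 at 2.2 ng/ml, near its day 0 level, against 936, 1306 and 989 at 10 ng/ml, a difference of 113-fold (95% interval 61.98 to 205). Fads2 went from 21.4, 19.5 and 30.9 to 511, 527 and 504, or 21.9-fold (95% interval 14.2 to 33.9), and Csn2 from 23.3, 82.5 and 78.4 to 685, 1235 and 1356, or 19.7-fold (95% interval 12.7 to 30.5), where 1 array at 2.2 ng/ml was near background.

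Aldoc, a fructose-bisphosphate aldolase, and Egln3 were higher at 10 ng/ml by 14.3-fold (95% interval 9.15 to 22.4) and 11.9-fold (95% interval 8.66 to 16.3). Cth, which makes cysteine from cystathionine, went from 14.1, 17.9 and 15.4 to 128, 154 and 212, or 10.3-fold (95% interval 7.57 to 13.9). H2-Ab1 went from 17.97, 34.2 and 16.6 to 203, 264 and 213, or 10.4-fold (95% interval 7.17 to 15.01). The other rises among the 10 largest were Nrn1, Ier3, an immediate early gene, and Ak4, a mitochondrial adenylate kinase. Irf4 was higher at 10 ng/ml, 350.2 ± 68.7 against 896 ± 68.4, by 2.59-fold (95% interval 1.90 to 3.51) (adjusted p = 1.0e-04).

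Some genes read higher at 2.2 ng/ml than at 10 ng/ml. Eomes, a T-box factor, read 619, 670.3 and 509 at 2.2 ng/ml, 17.5, 27.6 and 18.8 at day 0 and 62.1, 38.2 and 40.2 at 10 ng/ml, lower at 10 than at 2.2 ng/ml by 13.03-fold (95% interval 8.48 to 20.02) (adjusted p = 9.0e-09). Arhgap20 read 195, 301 and 230.4 at 2.2 ng/ml and 21.1, 18.3 and 21.7 at 10 ng/ml, lower by 11.7-fold (95% interval 8.71 to 15.8). Cygb, cytoglobin, and Efna5, an ephrin, were lower by 4.92-fold and 4.78-fold. Ms4a4b stayed at 644, 689 and 701 at 2.2 ng/ml and Gpr65 at 420.2, 411 and 331, near their day 0 levels, and were lower at 10 ng/ml by 17.96-fold (95% interval 11.6 to 27.9) and 11.2-fold (95% interval 7.55 to 16.6). The related genes Ms4a6b and Ms4a4c were lower by 5.17-fold and 5.17-fold, S1pr1 by 5.70-fold and Tdgf1, an EGF-CFC coreceptor, by 5.19-fold. Foxp3 was also higher at 2.2 ng/ml (263, 238 and 210.0) than at 10 ng/ml, by 4.78-fold (95% interval 3.93 to 5.82).

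**Figure D4:**
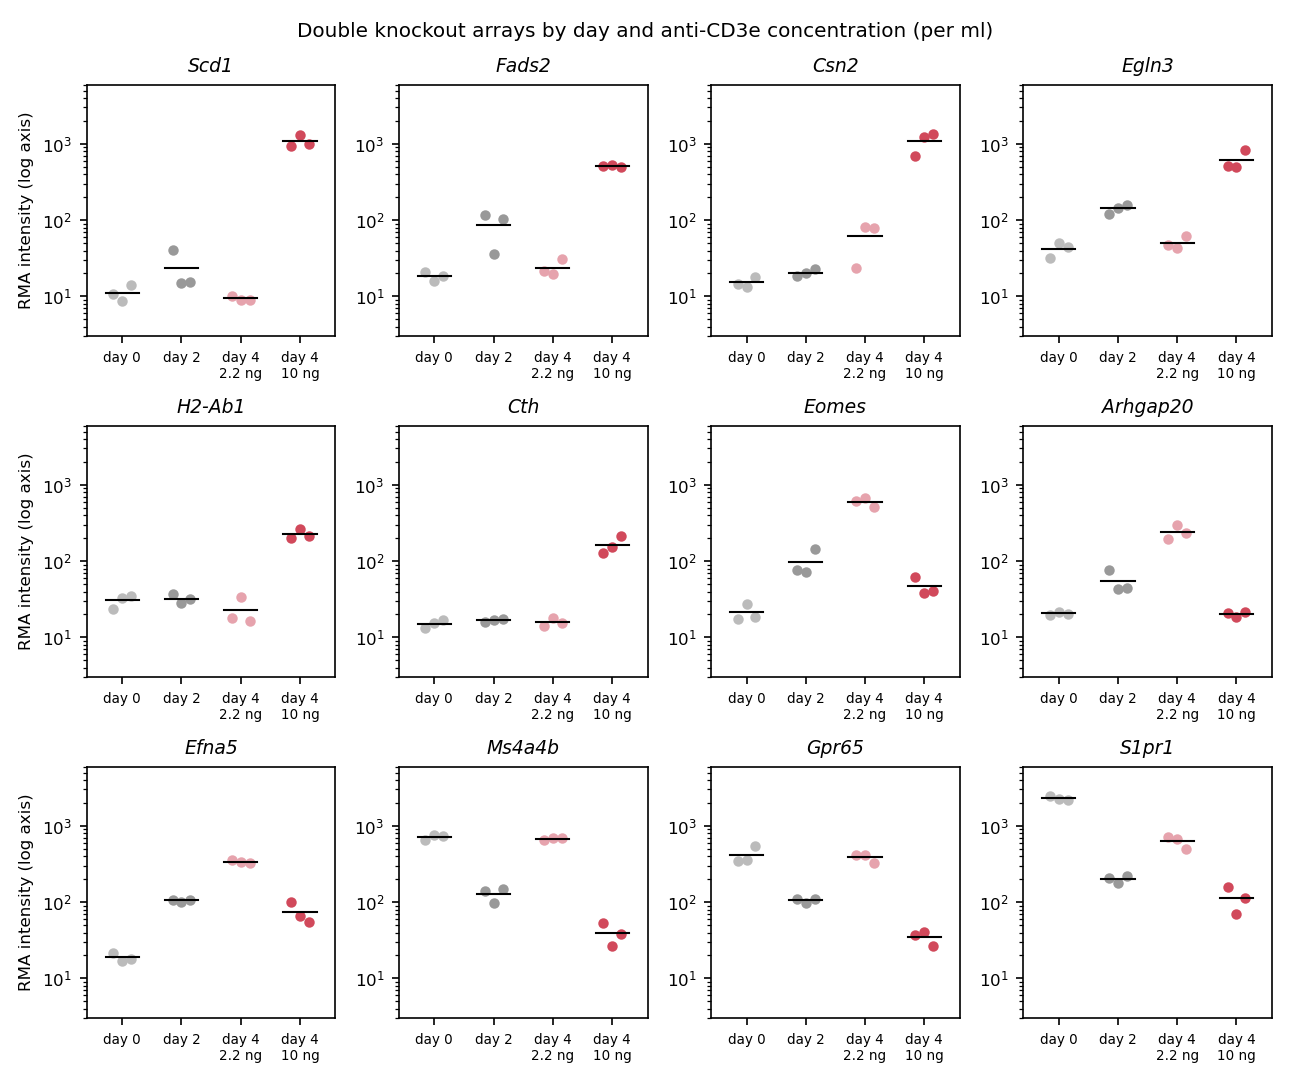
Intensity (RMA, linear units on a log axis) of 12 genes on each DKO array of 4 groups, ordered as day 0, day 2, then the 2 day 4 groups (2.2 and 10 ng/ml); points are arrays (n = 3 a group) and bars are arithmetic means. Scd1 is near its day 0 level at 2.2 ng/ml, Eomes and Arhgap20 are highest at 2.2 ng/ml, and Ms4a4b and Gpr65 are lowest at 10 ng/ml.

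Against DKO cells at day 2, 684 genes were higher and 349 lower at day 4 with 10 ng/ml, 5.18% of those tested (3.43% higher and 1.75% lower). The labels give no concentration for day 2, so day and dose may differ together and cannot be told apart. Without the third 10 ng/ml array the counts were 445 and 138, and without the third day 2 array 428 and 196. None of the 19 mitosis genes was called; Mki67, at 1135, 1119 and 949 at day 2 and 1051, 1037 and 1149.5 at day 4, differed by 0.02 ± 0.14 log2. Il2ra was likewise not called (1591, 1586 and 1375 at day 2, -0.03 ± 0.21 log2). Metabolic lists still rose, 12 of 14 hypoxia targets, 13 of 15 cholesterol genes and 8 of 13 glycolysis genes being higher at day 4, while 11 of 15 ribosome biogenesis genes and 6 of 14 nucleotide synthesis genes were lower, against 1.75% of all genes.

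Csn2 was at 18.8, 20.2 and 22.6 at day 2 and rose 51.2-fold (95% interval 33.00 to 79.5) to day 4 at 10 ng/ml (adjusted p = 3.3e-11). Scd1 read 40.2, 15.03 and 15.6 at day 2 and was 50.4-fold (95% interval 27.7 to 91.6) higher at day 4. Anxa2, a membrane-binding annexin, went from 17.9, 20.5 and 20.04 to 229, 201 and 188, or 10.6-fold (95% interval 7.52 to 14.8). Ndrg1 and Pdk4, a kinase that inhibits pyruvate dehydrogenase, were higher by 8.73-fold and 8.85-fold. Tnfsf10, the death ligand TRAIL, went from 48.5, 16.8 and 18.7 to 218, 174 and 144, or 7.11-fold (95% interval 4.64 to 10.9). Nrn1, Aldoc, Cth and Ier3 were the remaining genes of the 10 largest rises.

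The falls from day 2 were smaller. Ms4a4b went from 142, 97.9 and 149 to 53.7, 26.5 and 37.8, a fall of 3.38-fold (95% interval 2.18 to 5.24), and Gpr65 from 112, 97.7 and 111 to 37.3, 40.9 and 26.6, a fall of 3.10-fold (95% interval 2.09 to 4.60). Slc19a1, the reduced folate carrier, fell 2.77-fold by the probe set used, but probe sets of this gene were called in both directions in the comparison with day 0. Arhgap20, Neto2, Cd160, Gpatch4, Eid3, Gpr83 and Cltb fell between 2.31-fold for Cltb and 2.60-fold for Arhgap20. The comparisons with day 0, 2.2 ng/ml and day 2 share the 10 ng/ml arrays, so their calls are not independent of each other.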

How the data were processed

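RNA of 24 samples in 8 groups of 3 was measured on Affymetrix mouse gene arrays. The deposited table holds intensities on a linear scale, which the authors had normalized by RMA, per the submitters' processing notes, with no version or settings stated there. The log2 of each intensity was taken before testing. Of 35556 probe sets, 21789 had 1 gene symbol, 1621 several and 12146 none in the platform annotation; the probe set with the highest mean stood for each of 19938 genes. Groups came from the sample titles. One limma 3.58.1 model (R 4.3.3) with 8 group means, 16 residual degrees of freedom, gave each contrast, with p-values adjusted by Benjamini-Hochberg over all genes and called under 0.05. The fit was tested on simulated data with known answers.

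Genes were named by rule: the 3 factors Batf, Batf3 and Irf4; the 15 genes that rose and the 15 that fell most; the 10 largest each way in every other contrast, and per list up to 5 by the comparison with day 0 and 3 by the difference from WT, of which not all are printed. Other list members, the genes called in opposite directions and the motif TTCNNNGAA were chosen after their values were seen. The groups compared, the 40 lists (517 of 556 genes measured) and the rules were chosen with earlier results of these data known. Replicate numbers did not pair the arrays (correlations of deviations 0.02, 0.04 and 0.02). Alternatives tried were a filter on dim genes, other probe set rules, cyclic loess, quantile normalization, a replicate block, other moderation, array weights, the compared groups alone and each array left out. Probe sets without 1 symbol were left out of the comparisons. The number of arrays limits the precision, and no detection calls were used.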

Additional observations from a re-analysis of the deposited data

Results flagged for a closer look

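The change from day 0 to day 4 at 10 ng/ml differed between DKO and WT for 1299 genes by the interaction test of the limma model. The 20 genes named from it are given by the difference of log2 fold changes, DKO minus WT. Above 0 were Csn2 at 6.21, Ifi203 at 4.11, Tex35 at 3.92, Qser1 at 3.83, Dapl1 at 3.75, Trat1 at 3.64, Tox at 3.58, Nr4a3 at 2.91, Csf1 at 2.89 and Ostn at 2.78. Below 0 were Lilr4b at -7.82, Lilrb4a at -6.85, Il24 at -6.67, Mt2 at -6.64, Ctla2a at -6.32, Il10 at -6.29, Il21 at -5.97, Inhba at -5.89, Ifitm3 at -5.45 and Spef2 at -5.20.

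Probe sets without a single gene symbol were outside the comparisons. Of 13767 such probe sets, 3167 were called between DKO at 10 ng/ml and DKO at day 0, 1197 higher and 1970 lower.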

How the results depend on the processing

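Under the dim gene filter, the probe set rules, cyclic loess, quantile normalization, the block, the moderation, the array weights and the compared groups alone, no count of called genes in the 4 comparisons moved by over 1.5 times. With the replicate block the counts were 3279 higher and 2829 lower against day 0, 521 and 771 for the difference from WT, 905 and 736 against 2.2 ng/ml, and 706 and 346 against day 2; since the numbers did not pair the arrays, this shows only what the block does. Leaving out 1 array at a time gave 2871 to 3082 higher and 2394 to 2681 lower against day 0, 399 to 518 and 627 to 769 for the difference from WT, 577 to 806 and 466 to 647 against 2.2 ng/ml, and 428 to 695 and 138 to 289 against day 2. Against 2.2 ng/ml the lower count moved by over 1.5 times without the 2.2 ng/ml array 1 (481) or 2 (483) or the 10 ng/ml array 3 (466), and the higher count without the 2.2 ng/ml array 1 (577). Against day 2 the higher count did so without day 2 array 3 (428) or 10 ng/ml array 2 (455) or 3 (445), and the lower count without day 2 array 2 (206) or 3 (196) or 10 ng/ml array 1 (218) or 3 (138). The median gene against day 0 shifted by 0.10 (log2) with the dim filter and by 0.12 after quantile normalization. Genes with no call turned sign at small values. Against day 0 these were Il10 (0.093 after loess, 0.137 after quantile, -0.09 to 0.092 with 1 array left out), Il24 (0.057, 0.11, and -0.146 to 0.015), Il21 (0.021) and Inhba (0.055) after quantile, and Dapl1 (-0.416 to 0.118 with 1 array left out). Against day 2 they were Mki67 (-0.014 after quantile, -0.002 with array weights, -0.064 to 0.065 with 1 array left out) and Il2ra (-0.095 to 0.01). Leaving out single arrays also ended the calls of some genes with small or variable differences, among them Qser1 from day 0 (adjusted p = 0.053 without day 0 array 2) and Slc2a3 against WT. Lag3 against WT passed under the dim filter, with array weights and without either of 2 arrays, Il2ra against WT without WT day 0 array 2, and Prdm1 from day 0 without day 0 array 1 (adjusted p = 0.045). The cause was not tested.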
